A study of Arabidopsis thaliana with 8 samples.

Results

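The interaction of genotype and heat was examined in leaves of Arabidopsis thaliana: for each gene, the change after heat in the pif4-2 pif5-3 double mutant minus the change after heat in the Col-0 wild type. It uses all 8 RNA sequencing libraries of the series and, of 34354 genes in the table, the 16831 that reached 1 FPKM in 2 libraries or more. FPKM divide the sequenced fragments of a gene by transcript length and by library size. Plants aged 3 weeks, grown on soil at 22 °C, were either mock-treated or given 5 h at 42 °C followed by 3 days of recovery, and RNA came from the third and the fourth leaf of the rosette, which the series' design describes as starting to yellow at the edge. Both genotypes were sampled in mock and after heat, with 2 libraries each that the series describes as biological replicates, in each of the 4 groups. All mutant plants carry mutations in both PIF4 and PIF5, so the parts of the 2 genes cannot be told apart. Depth ran from 16852240 to 29535916 reads per library. Whole leaves were measured, in which fewer cells of a type and less RNA per cell cannot be told apart.

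PIF4 and PIF5 are basic helix-loop-helix transcription factors that phytochrome photoreceptors hold in check. They bind the G-box and the related E-box in promoters and are known for driving growth in shade and warmth, and in older or darkened leaves for promoting senescence through NAC factors, ethylene and abscisic acid. Senescence is the ordered breakdown of the leaf, in which chlorophyll is degraded and nitrogen is exported. An interaction asks whether the mutant responds to heat otherwise than the wild type, and it can arise in several ways. The genotypes may differ only after heat, may differ only in mock so that heat brings them together, or may change places.

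The mutated genes came first. PIF4 was at 131 and 131 FPKM in wild-type mock, 97.2 and 101 in wild-type heat, 33.5 and 33.6 in mutant mock and 25.6 and 23.8 in mutant heat. PIF5 was at 63.2 and 66.4 FPKM in wild-type mock, 54.3 and 54.9 in wild-type heat, 5.6 and 4.7 in mutant mock and 4.74 and 3.98 in mutant heat. Mutant and wild-type levels did not overlap, the mutant being lower throughout. Neither gene had an interaction past the threshold. It was -0.02 ± 0.07 in PIF4 (adjusted p = 0.85). In PIF5 it was 0.04 ± 0.12 (adjusted p = 0.82). Here and below, differences are on the log2(FPKM + 1) scale ± SE, which compresses differences of weakly expressed genes, and adjusted p-values are Benjamini-Hochberg values of limma over all tested genes. A gene was called below 0.05.

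Shown first are 5 genes of different roles, each with a G-box (CACGTG, its own reverse complement) before the annotated start, chosen to show what such a promoter looks like in the classes described below. The lines give the 250 bases before the start in 5′ to 3′ order on the strand of the gene, from the RefSeq sequence of TAIR10.1, with the G-box and any E-box (CACATG or its reverse complement CATGTG) in capitals. NAC019 encodes a NAC transcription factor of stress and senescence and lies on the minus strand (chr1:19698483-19698732). NYE2 encodes a magnesium dechelatase of chlorophyll breakdown, on the plus strand (chr4:7155900-7156149). DFR encodes the reductase of anthocyanin synthesis, on the minus strand (chr5:17166033-17166282). LHCB2.3 encodes an antenna protein of photosystem II, on the plus strand (chr3:10255656-10255905). CBF2 encodes a transcription factor of cold acclimation, on the minus strand (chr4:13016236-13016485).
NAC019: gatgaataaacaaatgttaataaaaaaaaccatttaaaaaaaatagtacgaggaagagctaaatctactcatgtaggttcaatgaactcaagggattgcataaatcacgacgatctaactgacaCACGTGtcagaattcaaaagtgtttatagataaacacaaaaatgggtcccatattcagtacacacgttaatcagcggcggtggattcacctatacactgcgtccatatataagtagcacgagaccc
NYE2: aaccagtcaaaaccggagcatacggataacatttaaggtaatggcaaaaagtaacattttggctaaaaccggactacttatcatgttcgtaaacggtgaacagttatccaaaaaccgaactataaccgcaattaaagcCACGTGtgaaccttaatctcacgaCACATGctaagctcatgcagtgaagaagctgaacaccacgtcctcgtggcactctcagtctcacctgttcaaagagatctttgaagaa
DFR: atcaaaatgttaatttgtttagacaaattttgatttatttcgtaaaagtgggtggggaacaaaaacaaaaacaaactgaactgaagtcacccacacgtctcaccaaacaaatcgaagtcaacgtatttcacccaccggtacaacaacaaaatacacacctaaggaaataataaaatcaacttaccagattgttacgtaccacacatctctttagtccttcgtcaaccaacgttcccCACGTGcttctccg
LHCB2.3: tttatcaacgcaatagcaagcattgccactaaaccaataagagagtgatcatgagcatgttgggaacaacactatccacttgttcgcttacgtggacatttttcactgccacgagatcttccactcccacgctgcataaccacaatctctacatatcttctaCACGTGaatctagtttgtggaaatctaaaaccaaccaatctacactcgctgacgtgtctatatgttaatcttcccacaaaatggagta
CBF2: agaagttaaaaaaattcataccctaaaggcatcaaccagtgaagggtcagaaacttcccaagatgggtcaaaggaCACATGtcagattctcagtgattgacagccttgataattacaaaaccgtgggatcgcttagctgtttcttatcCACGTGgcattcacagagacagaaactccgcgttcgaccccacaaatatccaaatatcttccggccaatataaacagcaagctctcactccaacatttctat
The G-box begins 126 bases before the start in NAC019, 112 in NYE2, 14 in DFR, 88 in LHCB2.3 and 102 in CBF2. A match describes the letters and shows no binding. In the windows of 300 bases around the start of 16630 tested genes, from 250 before to 50 after it, 9.06% held a G-box.

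The interaction was called for 5371 of the 16831 genes, 31.9%. It was positive for 1732, 10.3% of the tested genes, and negative for 3639, 21.6%. A positive value means that the mutant went further up, or less far down, after heat than the wild type. The split by direction depends on the scaling: positive calls were 32.2% of all calls as deposited, 49.2% after median-of-ratios scaling and 51.7% after quantile scaling, under which 2273 were negative. The median over all genes was -0.098 as deposited and 0.021 after quantile scaling. At least 2-fold were 783 called interactions, 174 positive and 609 negative, which is 1.03% and 3.62% of those tested (4.65% together). With the pseudocount lowered to 0.1 FPKM there were 1131 (288 and 843), and limma-voom on recovered reads gave 1143 (284 and 859). At the edge of the threshold lay NF-YB2 on the inside (0.38, adjusted p = 0.04998) and AT2G34360 on the outside (-0.53, adjusted p = 0.05007).

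Transcript length moved with the interaction. Tested genes were put in 10 bins of about equal size by annotated exon length. In the shortest bin, up to 930 bases, 14% were called positive and 12.2% negative. In the longest, 3253 bases or more, 1.86% were called positive and 50.9% negative, and the median interaction was -0.37. These long genes had a median heat change of 0.08 in wild-type and -0.28 in mutant leaves, and their median genotype difference was 0.18 in mock and -0.19 after heat. The replicates also differed by length, by a median of 0.14 for the longest bin between the wild-type mock libraries and 0.09 between the mutant mock libraries. With the length trend of each library removed, an alternative chosen after seeing the data, 4440 genes were called, 2189 positive and 2251 negative, and 3787 of them were also called as deposited. The effect of length on single genes is given beside them where it ended a call.

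**Figure D1:**
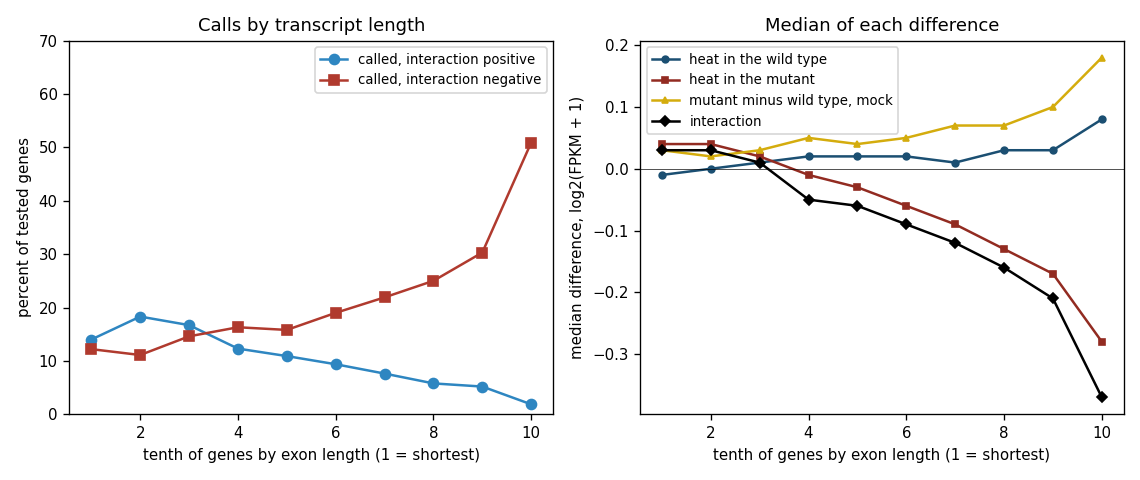
Share of tested genes called with a positive or negative interaction (left, percent) and medians of 4 differences (right, log2(FPKM + 1) scale) for 10 bins of genes by annotated exon length. Negative calls reached 50.9% in the longest bin, where the median interaction was -0.37, against 12.2% in the shortest.

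The called interactions were split by which genotype differences were themselves called. The genotypes differed in mock for 3479 genes (20.7% of those tested) and after heat for 4814 (28.6%). Of the 5371 interactions, 2291 (42.7%, or 13.6% of the tested genes) were set by the heat level alone, meaning that the genotypes differed after heat and not in mock. Another 1272 (23.7%, or 7.56% of the tested genes) were set by the mock level alone. In 888 (16.5%, or 5.28%) the genotypes crossed, being called in opposite directions, and in 233 (4.34%, or 1.38%) they kept the same order, with the gap widening after heat in 129 and narrowing in 104. For 687 (12.8%, or 4.08%) neither difference was called. Among interactions of at least 2-fold there were 383 set by the heat level, 62 by the mock level, 287 crossing, 47 of the same order and 4 of neither.

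A difference that misses the threshold is not shown to be absent, so the split moves with its rule. When a single-level class instead needed 1 difference to be over 3 times the other, 1512 were set by the heat level, 783 by the mock level and 2877 crossed. Single libraries also weighed on it. The mock-level class held 579 genes when wild-type mock replicate 1 was left out and 612 when mutant mock replicate 2 was, and the crossing class 467 and 469. The heat-level class held 1362 without wild-type heat replicate 1 and 1472 without wild-type heat replicate 2, and the crossing class 552 and 568.

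**Figure D2:**
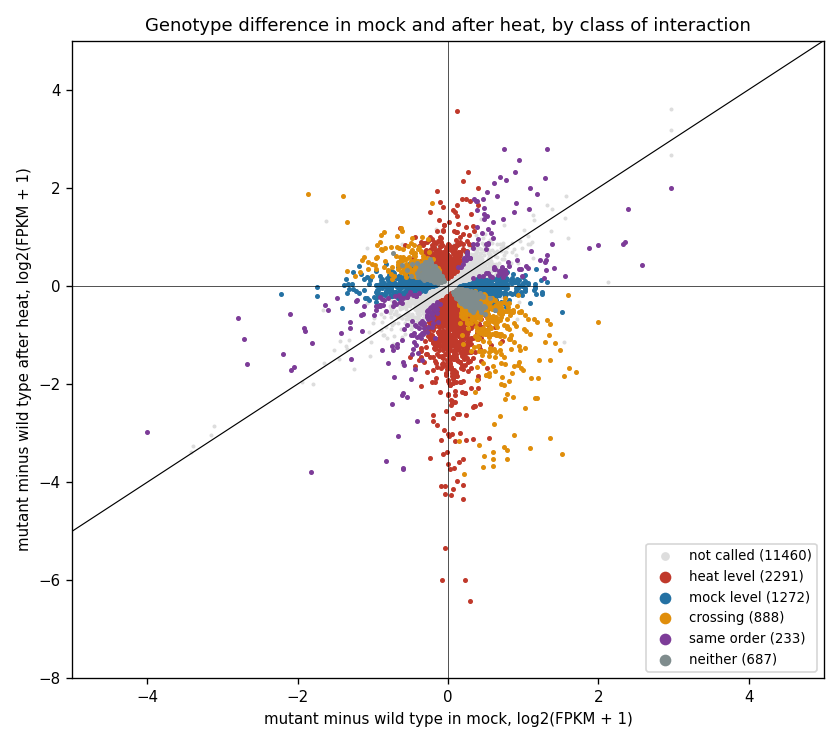
Mutant minus wild type in mock (x axis) and after heat (y axis) for each tested gene, both on the log2(FPKM + 1) scale, coloured by class of interaction, with the line of equal differences. Of the called genes 2291 lie along the vertical axis as heat level, 1272 along the horizontal axis as mock level and 888 in the 2 quadrants of opposite sign as crossing.

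Interactions set by the heat level were mostly negative, 1593 (9.46% of the tested genes) against 698 positive (4.15%). The negative ones had a median change after heat of 0.39 in wild-type leaves against -0.13 in mutant leaves, from mock levels that differed by a median of 0.10. The largest outside the gene lists were NIT2, which encodes a nitrilase, KTI1 and UPI, which encode protease inhibitors, and ELI3-2, which encodes an alcohol dehydrogenase. NIT2 was at 0.338 and 0.287 FPKM in wild-type mock, 177 and 216 in wild-type heat, 0.684 and 0.535 in mutant mock and 1.31 and 1.24 in mutant heat. Its 2 wild-type heat libraries lay far above the other 6, with an interaction of -6.72 ± 0.16 (adjusted p = 2.2e-10). KTI1 had an interaction of -6.21 ± 0.23, ELI3-2 of -5.91 ± 0.18 and UPI of -5.30 ± 0.17. Low genes of this kind entered the test through 1 group: 246 genes reached 1 FPKM only in the 2 wild-type heat libraries, and 206 of them were called, all negative, as they had to be if they differed. KTI1, ELI3-2 and UPI are among these, and so are SRG1, RNS1, DIN2, DFR, TT19, LDOX and HSP17.6A below.

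Senescence factors carried this pattern in part. Of 27 measured senescence transcription factors 12 were called negative and 3 positive, with a median interaction of -0.30 against -0.10 over all genes, and 7 of the 12 were set by the heat level. NAC019 was at 3.34 and 3.2 FPKM in wild-type mock, 39.5 and 42.3 in wild-type heat, 3.93 and 3.22 in mutant mock and 3.4 and 3.92 in mutant heat. The mutant heat libraries lay within the range of the mock libraries, and the interaction was -3.26 ± 0.15 (adjusted p = 2.4e-08). NAC047, another NAC factor, was at 14 and 15.7 FPKM in wild-type heat and between 1.11 and 2.02 in the other 6 libraries (-2.52 ± 0.21, adjusted p = 4.4e-06). ORE1, a central NAC activator of senescence, did not pass (-0.33 ± 0.16, adjusted p = 0.14), with 7.67 and 9.43 FPKM in wild-type heat and 4.71 and 5.47 in mutant heat. EIN3, the ethylene-response activator upstream of ORE1, was at -0.13 ± 0.07 (adjusted p = 0.17). ABI5, an abscisic acid response factor, stayed below 1 FPKM in all 8 libraries and was not tested.

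Chlorophyll breakdown genes were called negative in 8 and positive in 2 of 12 measured members, 7 of the 8 by the heat level. NYE2 was at 4.94 and 4.46 FPKM in wild-type mock, 16 and 17.3 in wild-type heat, 4.11 and 4.05 in mutant mock and 4.86 and 4.94 in mutant heat. Only its wild-type heat libraries stood away from the rest, and the interaction was -1.41 ± 0.13 (adjusted p = 9.5e-06). MES16, which demethylates chlorophyll catabolites, followed at -1.47 ± 0.15. The changes were smaller for NYE1, the main magnesium dechelatase gene (-0.45 ± 0.10), for PAO, which opens the chlorophyll ring (-0.41 ± 0.07), and for CLH1, a chlorophyllase gene (-0.52 ± 0.07). CLH1 rose after heat in the wild type (0.27) and fell in the mutant (-0.24). With the length trend removed 5 of the 12 members were called negative and 2 positive.

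Small heat shock proteins hold unfolding proteins. Of 14 measured members 12 were called, all 12 negative and by the heat level, with a median interaction of -1.67. Of these 14 genes 7 passed the filter only through wild-type heat, so the count and the median are a description. With either wild-type heat library left out these 7 were no longer tested and 5 of the 7 others were called, with a median of -1.08 without replicate 1 and -0.84 without replicate 2. The median was -3.36 with a pseudocount of 0.1 FPKM and -4.31 with limma-voom. The gene AT1G53540, annotated as an HSP20-like chaperone, was at 0.0 and 0.0888 FPKM in wild-type mock, 24.2 and 22.2 in wild-type heat, 0.113 and 0.0507 in mutant mock and 2.03 and 1.91 in mutant heat. Both heat groups lay above both mock groups, the wild type further so (-3.08 ± 0.17, adjusted p = 1.2e-07). HSP17.6A was at 8.23 and 9.14 FPKM in wild-type heat and at most 0.466 elsewhere (-3.07 ± 0.26). Chaperones were called negative in 17 of 19 members, or 11 of 19 with median-of-ratios scaling, 12 with quantile scaling, 10 with the length trend removed and 11 without wild-type heat replicate 1. HSP70 had an interaction of -1.80 ± 0.12, the disaggregase gene HSP101 of -1.2 ± 0.17 and HSFA2, a heat shock factor gene that prolongs the response, of -1.32 ± 0.19. Some heat shock genes are near-identical and may split reads, which makes single members uncertain. Of 13 heat shock factors 3 were called, 2 negative and 1 positive. This is 23.1%, below the 31.9% of all tested genes. HSFB1, a repressor of the family, was among the negative ones and crossed at -1.68 ± 0.09.

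Flavonoid genes, which make pigments and sunscreens, were mostly negative. Of 12 measured anthocyanin and flavonoid genes 10 were called negative, 9 by the heat level, and 1 positive, with a median of -1.59. Only wild-type heat carried 5 of the 12 past the filter. With either wild-type heat library left out, 7 were tested and 5 called negative (median -0.88 without replicate 1, -0.95 without replicate 2). The median was -2.40 with a pseudocount of 0.1 FPKM and -2.43 with limma-voom. DFR was at 0.131 and 0.132 FPKM in wild-type mock, 14.8 and 12.4 in wild-type heat, 0.223 and 0.391 in mutant mock and 0.331 and 0.195 in mutant heat. The other 6 libraries lay below 1 FPKM, and the interaction was -3.73 ± 0.20 (adjusted p = 8.4e-08). TT19, which carries pigments to the vacuole (-3.63 ± 0.20), and LDOX, which makes anthocyanidins (-3.15 ± 0.19), were likewise above 1 FPKM in wild-type heat only. TT4, the chalcone synthase gene at the start of the pathway, kept the same order of genotypes in both conditions and widened after heat. It was at 1.62 and 1.53 FPKM in wild-type mock, 26.3 and 24.5 in wild-type heat, 0.338 and 0.563 in mutant mock and 0.968 and 1.5 in mutant heat (-2.74 ± 0.19, adjusted p = 1.1e-06).

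Jasmonate output genes were called negative in 8 of 9 members, with a median of -1.68, 4 of them by the heat level. The defensin gene PDF1.2 was at 6.07 and 5.25 FPKM in wild-type mock, 290 and 251 in wild-type heat, 6.2 and 5.84 in mutant mock and 22.3 and 17.1 in mutant heat. It rose in both genotypes and more in the wild type (-3.80 ± 0.16, adjusted p = 1.1e-08). PDF1.3 (-4.55 ± 0.29) and PDF1.2C (-3.98 ± 0.22) are close copies that can share its reads. Abscisic acid genes were called negative in 14 and positive in 5 of 22 members, 12 of the 14 by the heat level, and negative in 8 with the length trend removed and in 9 without either wild-type heat library. The positive calls were 3 without any 1 of wild-type mock replicate 1, wild-type heat replicate 2, mutant mock replicate 2 or mutant heat replicate 2. Of the 22 abscisic acid genes, 2 passed the filter only through wild-type heat, where a call could only be negative. Without either wild-type heat library 20 were tested. CYP707A1 (-1.68 ± 0.18) and CYP707A3 (1.94 ± 0.19), which both encode hydroxylases that inactivate abscisic acid, went in opposite directions. CYP707A3 was at 2.04 and 2.06 FPKM in wild-type mock, 0.727 and 0.853 in wild-type heat, 2.76 and 2.24 in mutant mock and 7.75 and 6.04 in mutant heat, and its mutant heat libraries stood apart. Nitrogen and dark-inducible genes were called negative in 14 and positive in 3 of 23 members. DIN2, a sugar-starvation glycosidase gene, was at 17.5 and 19.1 FPKM in wild-type heat and at most 0.0924 in the others (-4.31 ± 0.18).

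Positive interactions set by the heat level were smaller, with a median of 0.42. CAF1A, which encodes an RNA deadenylase induced by stress, was at 37.9 and 50.3 FPKM in wild-type mock, 16.4 and 18 in wild-type heat, 54.3 and 50.9 in mutant mock and 96.1 and 84.2 in mutant heat. It fell in the wild type and rose in the mutant (2.06 ± 0.15, adjusted p = 1.4e-06). ACS6, which encodes an enzyme of ethylene synthesis, was at 11.3 and 12.5, 7.93 and 7.8, 11.3 and 11.4, and 25.6 and 26.5 FPKM in the same order of groups (1.67 ± 0.10, adjusted p = 3.4e-07). Its mock libraries overlapped and its mutant heat libraries were the highest. The cytokinin response regulator gene ARR6 lay between 12.1 and 13.9 FPKM in 6 libraries and at 4.49 and 4.86 in wild-type heat (1.3 ± 0.12). Of 10 cytokinin genes 5 were called, all positive. Outside the lists, PBP1, a calcium-binding partner of the PINOID kinase, had 1.48 ± 0.19, the purine permease gene PUP18 1.2 ± 0.10, EXL3 1.11 ± 0.10 and ENODL9 1.01 ± 0.14.

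**Figure D3:**
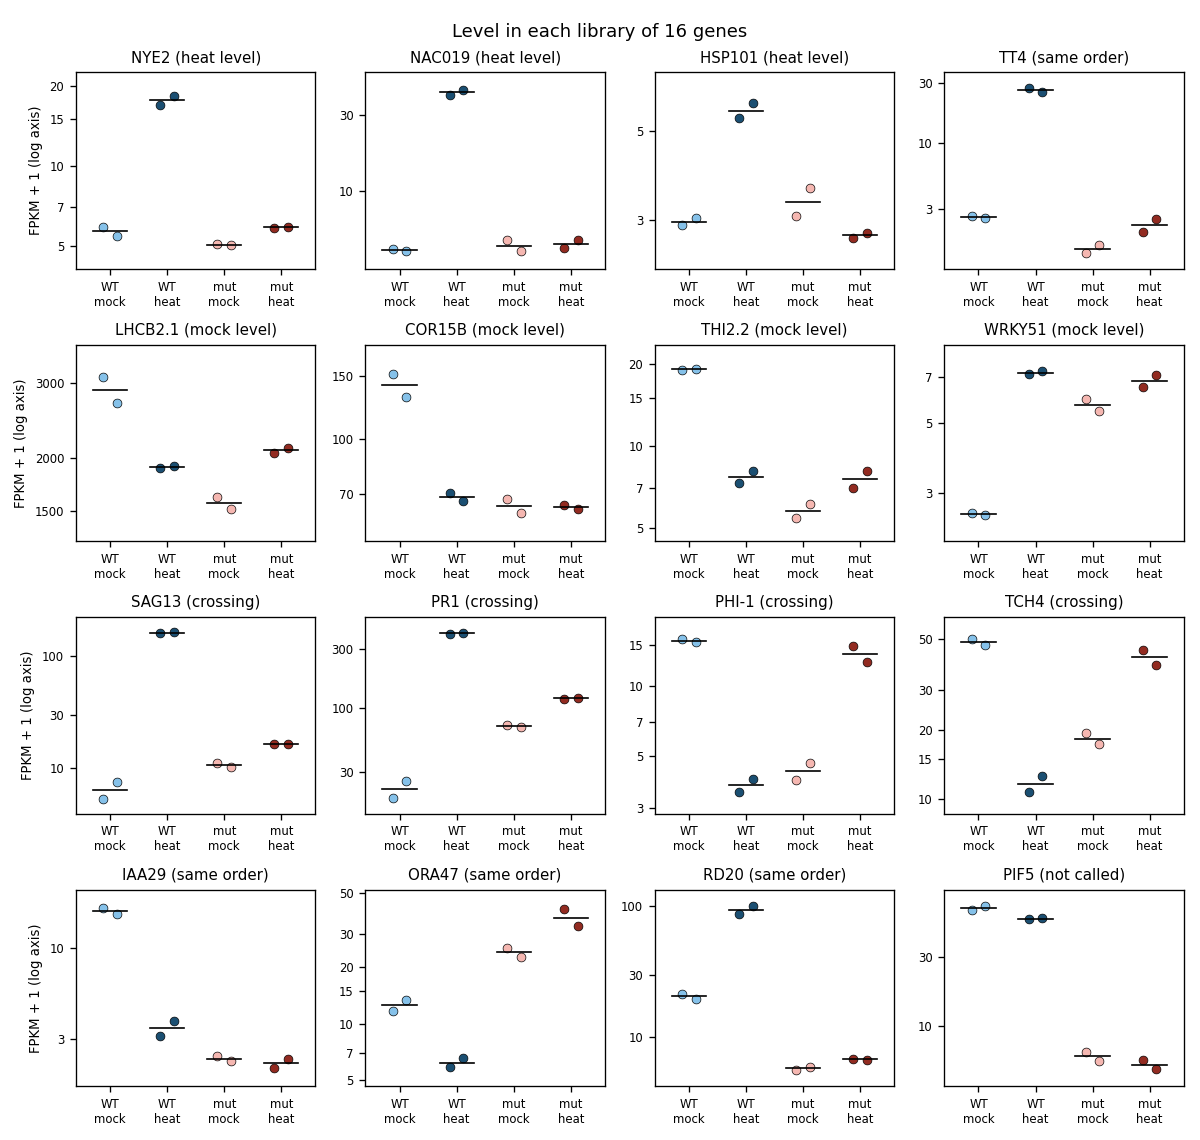
FPKM + 1 on a log axis in each of the 8 libraries for 16 genes, with points for single libraries and a bar for the mean of logs of the 2 libraries per group (WT, wild type; mut, pif4-2 pif5-3). NYE2 and NAC019 are high in wild-type heat only, COR15B is high in wild-type mock only, and for TCH4 and PHI-1 wild-type mock and mutant heat are the high groups.

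The mock level alone set 447 positive (2.66% of the tested genes) and 825 negative interactions (4.9%). Growth genes were among the positive ones. Auxin and growth genes were called positive in 25 and negative in 3 of 32 measured members, with a median interaction of 0.91. Of the 25, 9 were set by the mock level, 10 crossed, 5 kept the same order and 1 was set by the heat level. The median genotype difference was -0.83 in mock and 0.12 after heat. SAUR22, one of the small auxin-induced growth genes, was at 5.45 and 4.55 FPKM in wild-type mock, 1.13 and 0.988 in wild-type heat, 0.317 and 0.245 in mutant mock and 0.797 and 0.874 in mutant heat. Only wild-type mock was high (2.06 ± 0.19, adjusted p = 7.6e-06), although near-identical SAUR genes can share reads. IAA29, an auxin-response gene and known PIF target, was at 15.9 and 14.7 FPKM in wild-type mock, 2.15 and 2.84 in wild-type heat, 1.4 and 1.26 in mutant mock and 1.07 and 1.33 in mutant heat. The genotype difference was -2.80 in mock and -0.66 after heat, so the gap narrowed (2.14 ± 0.18, adjusted p = 4.6e-06).

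PIF and shade-response genes were called positive in 9 and negative in 2 of 18 members. PRE1, which encodes a helix-loop-helix protein of cell elongation, was at 21.2 and 21.3 FPKM in wild-type mock, 8.81 and 7.16 in wild-type heat, 9.65 and 9.39 in mutant mock and 10.3 and 8.18 in mutant heat (1.27 ± 0.15, adjusted p = 8.5e-05). Wild-type mock lay above the 3 other groups, which overlapped in part. HAT1, a homeodomain gene of the shade response, crossed at 1.01 ± 0.11. HFR1, which encodes a helix-loop-helix inhibitor of PIFs, was at 15.3 and 16.9 FPKM in wild-type mock and 7.31 and 7.15 in wild-type heat, and at most 0.118 in the 4 mutant libraries. Its positive interaction (1.04 ± 0.17) rests on a mutant level at which no further fall can be measured, and the call was lost with a pseudocount of 0.1 FPKM (adjusted p = 0.15) and with limma-voom (adjusted p = 0.45).

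Cold-regulated genes were called positive in 10 and negative in 2 of 17 members, with a median genotype difference of -0.82 in mock and -0.51 after heat. Of the 10, 3 were set by the mock level, 5 kept the same order, 1 crossed and 1 was set by the heat level. COR15B, which encodes a membrane-protecting chloroplast protein, was at 151 and 130 FPKM in wild-type mock, 69.7 and 66.0 in wild-type heat, 67.1 and 61.3 in mutant mock and 64.5 and 62.8 in mutant heat. Only wild-type mock was high (1.03 ± 0.10, adjusted p = 9.3e-06). THI2.2, a thionin gene (1.71 ± 0.14), ESE3, an ethylene- and salt-induced factor gene (1.54 ± 0.14), AGP12, an arabinogalactan protein gene (1.41 ± 0.13), and BBX29, a B-box zinc finger gene (1.27 ± 0.21), were the largest outside the lists.

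Among the 825 negative mock-level genes were 10 salicylic acid and defence genes and 9 of jasmonate synthesis, repression and turnover. Salicylic acid and defence genes were called negative in 18 of 25 members and positive in 0, negative in 17 and positive in 1 with median-of-ratios scaling, and negative in 14 and positive in 1 with quantile scaling. Of the 18, 10 were set by the mock level and 5 crossed, and the median genotype difference was 0.56 in mock and -0.01 after heat. WRKY51, a factor that links salicylate and jasmonate signalling, was at 1.6 and 1.56 FPKM in wild-type mock, 6.13 and 6.29 in wild-type heat, 4.97 and 4.44 in mutant mock and 5.51 and 6.08 in mutant heat. Wild-type mock was low and the other 3 groups high (-1.23 ± 0.15, adjusted p = 7.8e-05). Genes of jasmonate synthesis, repression and turnover were called negative in 13 of 21 members, 9 by the mock level. The repressor gene JAZ5 was at 2.33 and 2.64 FPKM in wild-type mock, 6.07 and 5.32 in wild-type heat, 6.35 and 7.29 in mutant mock and 6.17 and 5.53 in mutant heat (-1.13 ± 0.16, adjusted p = 0.00024). LOX4, a lipoxygenase gene of jasmonate synthesis, had -0.75 ± 0.13.

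Very long transcripts also led the negative side of this class. SYD, a chromatin remodeller gene with 11171 exon bases, was at 3.68 and 6.91 FPKM in wild-type mock and at 7.14 and 13.6 in mutant mock, with the replicates of each group far apart (-1.38 ± 0.36, adjusted p = 0.012). NUA, a nuclear pore gene of 6783 exon bases, had -1.2 ± 0.31 and CIP1, a COP1-interacting protein gene of 5613 exon bases, -1.33 ± 0.34. With the length trend removed SYD was at -0.54 (adjusted p = 0.12) and NUA at -0.61 (adjusted p = 0.065), and neither was called, whereas CIP1 was (-0.83, adjusted p = 0.038). The same alternative ended the calls of the ethylene transducer gene EIN2 (-0.02, adjusted p = 0.89), the F-box gene EBF2 that removes EIN3 (-0.21, adjusted p = 0.21), the clock gene GI (-0.09, adjusted p = 0.41) and the autophagy gene ATG18H (-0.23, adjusted p = 0.16).

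Crossing interactions were positive in 316 genes (1.88% of those tested) and negative in 572 (3.4%). Light-harvesting proteins, the chlorophyll-binding antennae, were called in all 19 measured members, 18 positive and 1 negative, and 13 of the 18 crossed. Nuclear genes of photosystem and electron transport subunits were called positive in 29 of 30 members, 16 of them crossing. PSAN, a subunit of photosystem I, was at 2400 and 2170 FPKM in wild-type mock, 1650 and 1660 in wild-type heat, 1920 and 1740 in mutant mock and 2170 and 2160 in mutant heat. It fell after heat in the wild type (-0.46) and rose in the mutant (0.25), with an interaction of 0.71 ± 0.08 (adjusted p = 4.3e-05). PSAK (0.61 ± 0.07) and PSAO (0.54 ± 0.06), also of photosystem I, did likewise. The medians were 0.51 and 0.40 as deposited and 0.14 and 0.21 with quantile scaling, which left 9 of 19 light-harvesting and 21 of 30 photosystem genes positive. Removing the length trend left 18 and 29 positive, and 1 negative among the light-harvesting genes.

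LHCB2.1 was at 3090 and 2690 FPKM in wild-type mock, 1890 and 1920 in wild-type heat, 1620 and 1520 in mutant mock and 2060 and 2110 in mutant heat. Its mock libraries lay on either side of the heat libraries (1.01 ± 0.08, adjusted p = 3.4e-06). LHCB2.3 had 1.02 ± 0.06, both being set by the mock level, and reads of the LHCB copies can be shared. LHCB4.3, an antenna gene that stress is known to induce, went the other way, from 5.1 and 5.66 to 24.1 and 22.2 FPKM in the wild type and from 5.13 and 4.5 to 9.77 and 11 in the mutant (-0.95 ± 0.14). Chlorophyll synthesis genes were called positive in 10 and negative in 1 of 20 members, with CRD1, a cyclase subunit gene, at 0.50 ± 0.07, PCB2 at 0.42 ± 0.09 and HEMA1 at 0.37 ± 0.08. Calvin cycle genes were called positive in 6 of 18, with a median of 0.13 that became -0.01 with quantile scaling, where 4 were positive and 3 negative. The called share of this list, 33.3%, was near the 31.9% of all tested genes (10.3% positive). The called Calvin cycle genes included SBPASE (0.32 ± 0.06), HCEF1 (0.30 ± 0.05) and the Rubisco gene RBCS3B (0.25 ± 0.07), whose call was lost without any of 4 single libraries. Chloroplast-encoded transcripts were called positive in 22 of 75 (29.3%, also near the share of all tested genes) and negative in 0. Their summed level was 718 to 812 FPKM in wild-type mock, 596 to 640 in wild-type heat, 718 to 789 in mutant mock and 873 to 921 in mutant heat.

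Among the named genes, touch and growth genes had the largest positive crossings. PHI-1, a phosphate- and sugar-responsive growth gene, was at 14.9 and 14.4 FPKM in wild-type mock, 2.5 and 2.99 in wild-type heat, 2.95 and 3.68 in mutant mock and 13.9 and 11.7 in mutant heat. TCH4, a touch-induced cell wall enzyme gene, was at 49.3 and 46.4, 9.72 and 11.6, 18.5 and 16.4, and 44.1 and 37.7 FPKM in the same groups. Each fell after heat in the wild type and rose in the mutant, so that mutant heat came near wild-type mock. The interaction was 3.74 ± 0.17 for PHI-1 (adjusted p = 1.9e-08) and 3.25 ± 0.13 for TCH4 (adjusted p = 1.1e-08). DREB26, an AP2/ERF factor gene, followed at 2.65 ± 0.16, TCH2, a calmodulin-like gene, at 1.90 ± 0.09, MYB77, an auxin-response partner gene, at 1.81 ± 0.15, AGP41 at 1.64 ± 0.23 and CML23 at 1.60 ± 0.26. CBF2 was at 12.5 and 14 FPKM in wild-type mock, 4.46 and 4.78 in wild-type heat, 7.73 and 8.1 in mutant mock and 11.7 and 9.09 in mutant heat (1.69 ± 0.16, adjusted p = 9.3e-06).

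On the negative side of the crossing class were senescence and pathogen genes that were higher in the mutant in mock and lower after heat. Senescence-associated genes were called negative in 16 and positive in 1 of 19 members (median -0.92), 7 of the 16 crossing and 5 by the heat level. Of the 19, 3 passed the filter only through wild-type heat, where a call could only be negative. Without wild-type heat replicate 1, 11 of 16 were negative (median -0.52), and without replicate 2, 13 of 16 (median -0.54). SAG13, a short-chain dehydrogenase gene used as a senescence marker, was at 4.38 and 6.55 FPKM in wild-type mock, 158 and 160 in wild-type heat, 10.1 and 9.32 in mutant mock and 15.5 and 15.3 in mutant heat. Its mutant mock libraries lay above wild-type mock and its mutant heat libraries far below wild-type heat (-4.03 ± 0.17, adjusted p = 1.1e-08). The ribonuclease gene RNS1 (-3.93 ± 0.19) crossed as well, while SRG1, an oxygenase gene, was set by the heat level (-4.11 ± 0.21). PR1, the standard marker of salicylate defence, was at 17.6 and 24.7 FPKM in wild-type mock, 394 and 402 in wild-type heat, 72.2 and 68.3 in mutant mock and 117 and 119 in mutant heat. The 4 groups of PR1 did not overlap, and heat raised it in both genotypes (-3.45 ± 0.15, adjusted p = 1.4e-08). PR2, a glucanase gene, had -1.78 ± 0.08.

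Camalexin, a sulfur-containing antimicrobial of Arabidopsis, depends on PAD3 and CYP71A13, which crossed at -2.50 ± 0.13 and -2.32 ± 0.20. Of 24 glucosinolate and camalexin genes 14 were called negative, 8 of them crossing, and 3 positive. TGG2, a myrosinase gene that cleaves glucosinolates, was positive, at 275 and 266 FPKM in wild-type mock, 74.9 and 65.9 in wild-type heat, 142 and 156 in mutant mock and 146 and 155 in mutant heat (1.94 ± 0.09, adjusted p = 2.9e-08). Heat did not change TGG2 in the mutant beyond the threshold (0.01). The largest negative crossings outside the lists, by the naming rule, were JRG21, a jasmonate-regulated oxygenase gene (-4.39 ± 0.13), AGP2 (-4.26 ± 0.24), CYP71A12, a close copy of CYP71A13 (-4.12 ± 0.14), and the trypsin inhibitor gene TI1 (-4.06 ± 0.10). NBR1, an autophagy receptor gene, crossed at -0.74 ± 0.05, while 5 of 15 autophagy genes were called, all negative as deposited, 1 positive and 3 negative with median-of-ratios scaling, and 3 negative without any 1 of wild-type mock replicate 1, wild-type heat replicate 2, mutant mock replicate 1 and either mutant heat library. The called share of the autophagy list was 33.3%, near the 31.9% of all tested genes (21.6% negative). Its median interaction was -0.11, against -0.1 over all genes. The glutathione transferase genes GSTF6 (-1.89 ± 0.08) and GSTF7 (-1.42 ± 0.09), neighbouring copies, crossed too. As deposited 888 genes crossed, of which 578 crossed under all 3 scalings and 627 with the length trend removed.

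The class of unchanged order had 107 positive (0.636% of the tested genes) and 126 negative members (0.749%). It held 7 of the 13 called genes of the rapid wound, touch and stress list, all 13 of which were positive (22 measured). In this list the mutant was higher in mock by a median of 0.40 and after heat by 0.94. ORA47, a jasmonate-induced AP2/ERF factor gene, was at 10.7 and 12.4 FPKM in wild-type mock, 4.88 and 5.54 in wild-type heat, 24.3 and 21.8 in mutant mock and 39.9 and 32 in mutant heat. The gap widened as the wild type fell and the mutant rose (1.62 ± 0.15, adjusted p = 1e-05). DIC2, a mitochondrial carrier gene (2.06 ± 0.11), and the nudix hydrolase genes NUDT4 (1.53 ± 0.14) and NUDT21 (1.48 ± 0.14) had the same form. RD20, a drought-induced caleosin gene, was at 20.3 and 18.7 FPKM in wild-type mock, 86.1 and 99.9 in wild-type heat, 4.61 and 4.95 in mutant mock and 5.79 and 5.74 in mutant heat. The mutant was low in both conditions and did not change with heat beyond the threshold (-1.97 ± 0.12, adjusted p = 2.3e-07). CML41, a calmodulin-like gene, was at 12.2 and 11.6, 107 and 122, 76.6 and 75.7, and 148 and 159 FPKM in the order of groups used before. Here heat narrowed a gap that was already open in mock (-2.16 ± 0.09, adjusted p = 1.1e-08). BAM5, a beta-amylase gene (-3.15 ± 0.20), the aldo-keto reductase gene ChlAKR (-2.34 ± 0.19), the transporter gene UMAMIT29 (-1.60 ± 0.20) and the dehydrin gene LTI30 (-1.71 ± 0.22) widened after heat, with the mutant lower.

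**Figure D4:**
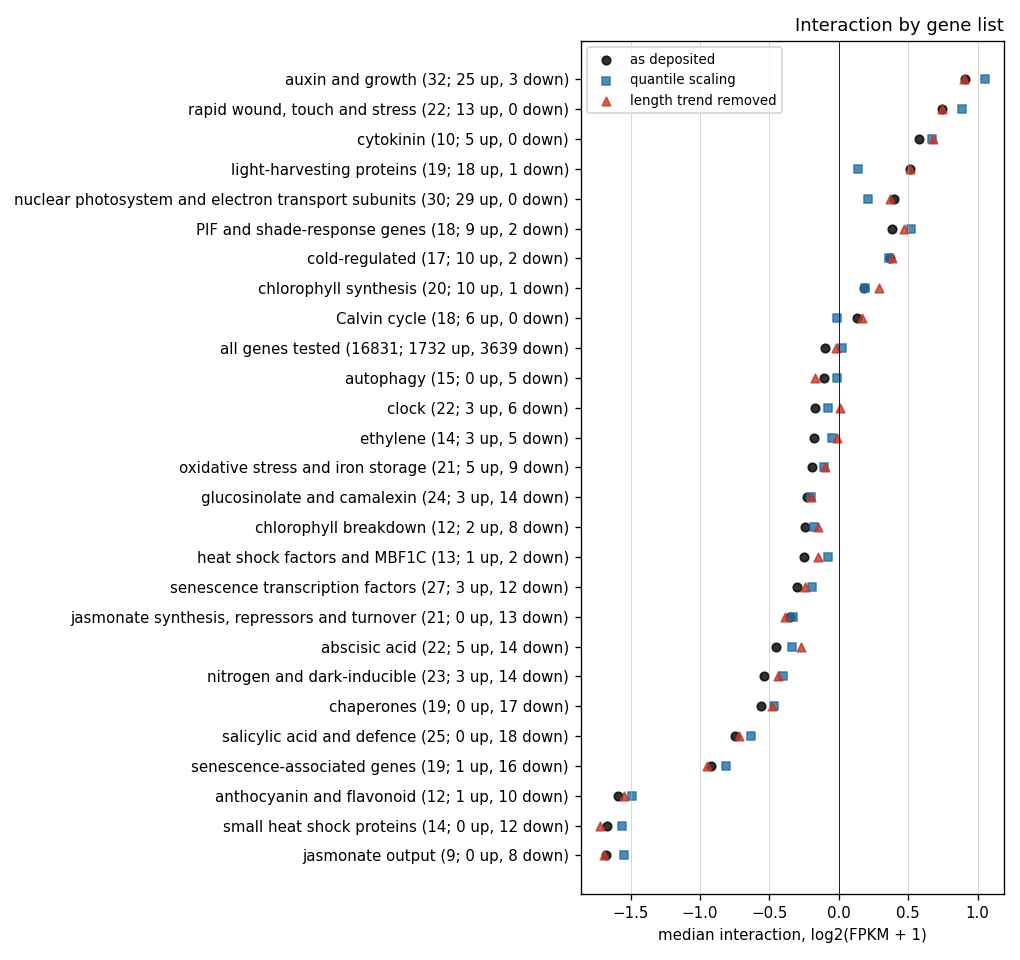
Median interaction (log2(FPKM + 1) scale) over the measured genes of each list, as deposited, after quantile scaling and with the length trend removed; the labels give the genes measured and those called positive (up) or negative (down). Auxin and growth genes are at the top as deposited with 0.91, small heat shock proteins (-1.67) and jasmonate output genes (-1.68) lie together at the bottom, and light-harvesting genes move from 0.51 to 0.14 with quantile scaling.

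A called interaction can also be read by the group that stands apart. A group was said to do so when its mean was separated from the nearest of the others by at least the range of those 3. Wild-type heat stood apart for 1623 of the called genes (30.2%, or 9.64% of those tested), above the others in 1140 and below in 483. Wild-type mock did so for 966 (427 above, 539 below), mutant heat for 484 (137 above, 347 below) and mutant mock for 269 (206 above, 63 below), which is 5.74%, 2.88% and 1.6% of the tested genes. No group stood apart for the other 2029. Among the 783 interactions of at least 2-fold, wild-type heat stood apart in 478, of which 437 were above, and mutant heat in 29. Of the called genes, 206 reached 1 FPKM in wild-type heat only, so for these the filter fixed it as the highest group. With a filter of 5 FPKM in 2 libraries, wild-type heat stood apart in 1270 of 4771 called genes. With the length trend removed wild-type heat stood apart in 1626, wild-type mock in 1055, mutant heat in 220 and mutant mock in 156 genes.

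**Figure D5:**
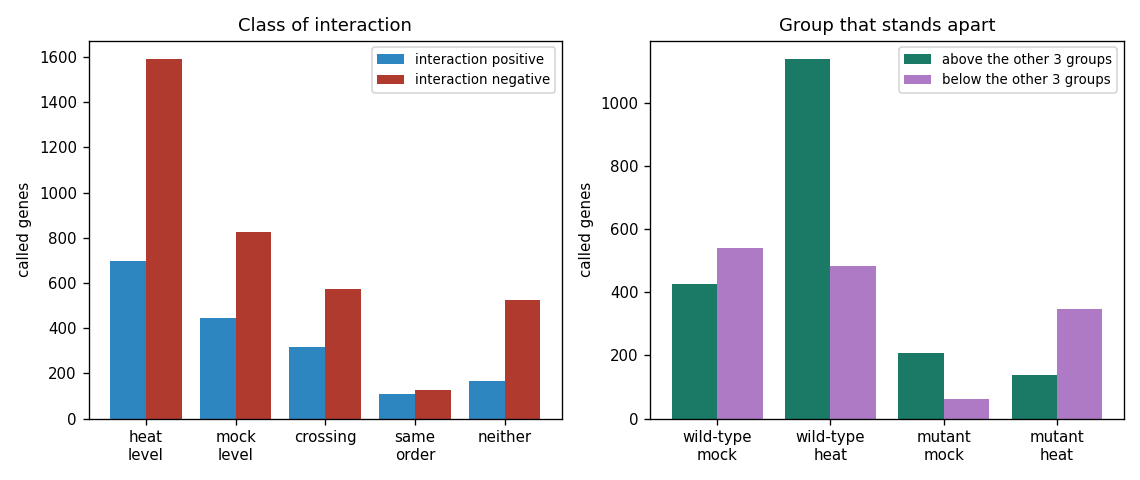
Called genes in each class of interaction by sign (left) and by the group that stands apart from the other 3 (right). Negative interactions outnumber positive ones in every class as deposited, and wild-type heat is the group that stands apart most often, above the others in 1140 genes and below in 483.

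By the heat changes themselves, 3050 of the called genes (56.8%) changed in the wild type only, 983 (18.3%) in the mutant only, 428 (7.97%) in both in 1 direction and 487 (9.07%) in both in opposite directions. For 423 neither change was called. As shares of the tested genes these are 18.1%, 5.84%, 2.54%, 2.89% and 2.51%. For comparison, 38.4% of all tested genes changed with heat in the wild type, against 20.2% in the mutant. Where both rose (275 genes) the rise was larger in the wild type in 254, with medians of 1.23 and 0.44. Where both fell (153) the fall was larger in the wild type in 142. The genes with opposite changes were up in the wild type and down in the mutant in 275 and the reverse in 212, and 261 of the 487 did so under all 3 scalings. AOX1D, which encodes the alternative oxidase of mitochondria, was at 0.446 and 0.419 FPKM in wild-type mock, 11.4 and 10.7 in wild-type heat, 1.87 and 1.98 in mutant mock and 1.25 and 1.04 in mutant heat. It rose in the wild type and fell by 0.45 in the mutant, to a level still above wild-type mock (-3.52 ± 0.17, adjusted p = 3.1e-08). NHL10 (-3.44 ± 0.18) and AACT1 (-2.88 ± 0.20) were similar. The number changed in the mutant only was 575 with quantile scaling, 359 with the length trend removed, 371 when mutant mock replicate 2 was left out, and 515 or 474 when mutant heat replicate 1 or 2 was. Opposite changes numbered 182 to 312 without any 1 of mutant mock replicate 2, either mutant heat library or either wild-type heat library.

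Other lists gave both directions or few calls, against the background of 31.9%. Of 22 clock genes 9 were called, 3 positive and 6 negative, with PRR9 at 0.64 ± 0.17 and CDF1 at 0.45 ± 0.13. With the length trend removed 4 clock genes were positive and 3 negative, and the median went from -0.17 to 0.01. Of 14 ethylene genes 8 were called, 3 positive and 5 negative, a split that became 3 and 2 with the length trend removed. Without either wild-type heat library 3 were negative. Oxidative stress and iron storage genes were called positive in 5 and negative in 9 of 21, with GSTU24 at -1.57 ± 0.29. The positive calls were 2 or 3 without any 1 of 6 libraries, all except wild-type mock replicate 1 and mutant mock replicate 2. Of 2 measured cell division genes 1 was called, positive. Mitochondria-encoded transcripts were called positive in 3 and negative in 11 of 32, with a summed level of 206 to 211 FPKM in wild-type heat and 152 to 169 in the other 6 libraries.

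Markers of other cell types were checked for the same interaction. Guard cell markers were called in 1 of 4 measured genes (negative), vascular markers in 2 of 7 (positive) and epidermis and trichome markers in 1 of 6 (positive). These are 25%, 28.6% and 16.7%, below the 31.9% of all tested genes, so the counts of calls show nothing particular to the markers. The summed epidermis level was 407 to 432 FPKM in wild-type mock, 347 to 368 in wild-type heat, 241 to 247 in mutant mock and 190 to 208 in mutant heat, ranges that did not overlap. A sum gives most weight to the highest members. Over the 6 single epidermis markers the median genotype difference was -0.23 in mock and -0.13 after heat. Guard cell sums were 25.3 to 26.5 FPKM in wild-type mock and 28.9 to 29.1 in wild-type heat. They were 26.6 to 27.9 in mutant mock and 24.9 to 28.2 in mutant heat. Vascular sums were 384 to 388, 335 to 341, 372 to 395 and 373 to 397 FPKM in the same order of groups. Wild-type heat thus had the highest guard cell and the lowest vascular sums. The 4 shoot meristem markers were below 1 FPKM in all libraries and summed to at most 0.163, and 1 of them was at 0 throughout. Of 5 root and flower markers 2 were measured, both called negative. Of these 2, 1 passed the filter only through wild-type heat, where a call could only be negative, so the count is a description. The sum was 24.2 to 24.5 FPKM in mutant mock and 11.2 to 15 elsewhere, with 1 of the 5 at 0 throughout. The part of these markers in the results above was not tested.

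Promoter letters were counted by class in the 300-base windows, on both strands, with exact binomial 95% intervals that cover counting error only. The G-box was in 9.06% of all windows, in 12.4% (9.47 to 15.8) of positive mock-level genes and in 10.9% (9.36 to 12.5) of negative heat-level genes, the classes of LHCB2.3 and of NAC019, NYE2 and DFR. The E-box CACATG was in 12.3% of all windows and in 18.7% (15.2 to 22.6) of positive mock-level genes, 20.8% (13.5 to 29.7) of positive and 23.4% (16.3 to 31.8) of negative same-order genes, and 11.8% (10.3 to 13.5) of negative heat-level genes. The W-box (TTGACC or TTGACT), the site of WRKY factors, was in 32.7% of all windows. Negative crossing genes held it in 42.4% (38.3 to 46.5). SAG13 and PR1 are of that class, but neither held a W-box in its own window. The share was also above that of all windows in negative heat-level genes, at 36.8% (34.4 to 39.2). It was below in positive heat-level genes (28.6%, 25.2 to 32.2) and positive mock-level genes (27%, 22.9 to 31.4). Positive crossing genes, the class of CBF2, held the W-box in 27.2% (22.4 to 32.5). They held the evening element core AATATCT in 17.3% (13.3 to 22.0), against 12.2% of all windows. The heat shock element GAANNTTC was in 11.5% of all windows and in 14.9% (12.5 to 17.5) of negative mock-level genes. Negative heat-level genes, the class of the called small heat shock genes, held it in 13% (11.4 to 14.8). Of these, AT1G53540 held the element in its window and HSP17.6A did not. A window counts once for each motif it holds, and stretches of different motifs may overlap.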

How the data were processed

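Total RNA from rosette leaves was made into strand-specific libraries, per the labels' protocols, and the authors deposited 1 table of FPKM for 34354 genes in 8 libraries. TopHat, TopHat2, edgeR and the TAIR10 build are named without versions, per the submitters' processing notes. The counting program, the annotation and its use of strand are not stated in the sources used here. Rows with a locus in the RefSeq annotation of TAIR10.1 numbered 32548, and that annotation gave symbols, exon lengths and promoters. Whole reads were recovered from the steps of the FPKM values, within a tolerance of 0.1 of a read, and gave depths of 16852240 to 29535916 reads. The annotated exon length gave whole reads for 13159 of 23543 rows above 0, and the other rows rest on a fitted step. The intervals on motif shares cover counting error only.

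The 16831 genes that reached 1 FPKM in 2 or more libraries were fitted as log2(FPKM + 1) over the 4 groups with limma 3.58.1 in R 4.3.3 (moderated variances with an intensity trend, Benjamini-Hochberg adjustment), after the code was tested on simulated data. Tables and figures used Python 3.11.15, pandas 2.3.3 and matplotlib 3.10.9. The 5 contrasts were the interaction, the genotype difference in mock and after heat, and the heat change in each genotype, which share libraries. Libraries of a group are biological replicates by the series' design, and the labels do not tie equal numbers across groups. Alternatives were other pseudocounts, filters, scalings, weights and trends, limma-voom, a replicate block and each library left out.

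Members and lists were chosen with earlier results of these data known. Named genes were 14 chosen by role, up to 3 called members per list with the largest interaction and a group mean of at least 5 FPKM, 4 per class and sign outside the lists, and 3 per direction with opposite heat changes, the last 2 kinds with the same sign in all 16 ways to take 1 library per group. NF-YB2 and AT2G34360 were named for lying at the threshold. Near-identical copies (LHCB, RBCS, SAUR, PDF1 and heat shock genes, GSTF6 and GSTF7, CYP71A12 and CYP71A13) can share reads and are uncertain singly.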

Additional observations from a re-analysis of the deposited data

Results flagged for a closer look

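For 31 of the named genes the heat change, as deposited, passed the test in both genotypes with opposite signs. On that scaling the genotypes differed in direction, and the interaction is the limma test of that difference (adjusted p below 0.05 for each). Direction can depend on the scaling. Of all 487 genes with opposite changes, 261 kept them under all 3 scalings and 251 with the length trend removed. Where the wild type fell and the mutant rose, the interaction on the log2(FPKM + 1) scale was 3.74 for PHI-1, 3.25 for TCH4, 2.65 for DREB26, 2.06 for SAUR22, 2.06 for CAF1A, 2.06 for DIC2, 1.94 for CYP707A3, 1.9 for TCH2, 1.81 for MYB77, 1.71 for THI2.2, 1.69 for CBF2 and 1.67 for ACS6. It was 1.62 for ORA47, 1.6 for CML23, 1.54 for ESE3, 1.53 for NUDT4, 1.48 for NUDT21, 1.48 for PBP1 and 1.2 for PUP18. Photosynthesis genes of this kind were LHCB2.3 at 1.02, LHCB2.1 at 1.01, PSAN at 0.71, PSAK at 0.61, PSAO at 0.54 and CRD1 at 0.5. Where the wild type rose and the mutant fell, it was -3.52 for AOX1D, -3.44 for NHL10, -2.88 for AACT1, -0.95 for LOX3, a lipoxygenase gene of jasmonate synthesis, -0.74 for NBR1 and -0.52 for CLH1. Opposite changes were a condition for naming some of these genes, so their number is no measure of how common the pattern is.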

How the results depend on the processing

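Of 2153 combinations of a named gene and an alternative, 2113 kept their sign and their side of the threshold, 40 lost the call and 0 changed sign. Among the 117 named genes called, 105 were called under every alternative run. HSFB2A, a heat shock factor gene, lost its call under 8 and RBCS3B under 6. ATG8H lost it with quantile scaling (adjusted p = 0.071). The cause of the changes below was not tested.

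A fold of at least 2 left 783 of 5371 interactions (174 positive, 609 negative), in classes of 383 (heat level), 62 (mock level), 287 (crossing), 47 (same order) and 4 (neither). It left responses of 538 (wild type only), 26 (mutant only), 111 (both, 1 direction), 104 (opposite) and 4 (none), and groups standing apart of 116, 478, 6 and 29 (wild-type mock and heat, mutant mock and heat). A gap of at least 2 times the range gave 426, 902, 86 and 165. The split by size gave 1512, 783 and 2877 (heat level, mock level, crossing). Without a filter there were 571 crossing genes and 277 opposite responses. Without an intensity trend there were 546 crossing, 150 same order and 260 opposite. Median-of-ratios scaling left 171 genes with mutant mock apart. Quantile scaling gave 2273 negative calls, 575 changed in the mutant only and 170 with mutant mock apart. With the length trend removed, chosen after seeing the data, there were 2251 negative calls, 418 of neither class, 359 mutant only, 232 with no response, and 156 and 220 with mutant mock and mutant heat apart.

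Leaving out 1 library gave 3926 to 5194 calls, 1274 to 1628 positive and 2529 to 3566 negative. Classes ran from 1362 to 2282 (heat level), 579 to 1255 (mock level), 467 to 991 (crossing), 140 to 192 (same order) and 441 to 780 (neither). Responses ran from 2151 to 3053 (wild type only), 371 to 968 (mutant only), 213 to 405 (both, 1 direction), 182 to 610 (opposite) and 254 to 515 (none). Groups standing apart ran from 704 to 1170, 1247 to 1455, 116 to 369 and 287 to 429, in the order above. Wild-type heat replicate 1, left out, gave the lowest same-order count, and wild-type mock replicate 1 the lowest counts of neither class and of no response. Without mutant mock replicates 1 and 2 and mutant heat replicates 1 and 2 in turn, 259, 236, 249 and 213 genes changed in both in 1 direction.

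Whether equal replicate numbers pair the libraries cannot be told with 2 libraries a group. The correlations of their deviations ran from -0.0277 to 0.186, the highest being between wild-type mock and mutant mock. The replicate block gave 5645 calls. With 250-base windows, 17 of 55 motif shares lay outside the interval of the 300-base share. The shorter windows lie within the longer ones, so a share could only fall or stay. Over all tested genes the W-box share went from 32.7% to 28.2%. The 17 shares therefore say nothing about differences between classes. With 2 libraries a group, a difference that was not called is not shown to be absent.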
